A study of Caenorhabditis elegans with 2 samples.

Results

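The genes examined were those of the proteasome subunits in Caenorhabditis elegans, 33 of the 19985 protein-coding genes of the annotation, taken by gene symbol. The 14 core particle genes are pas-1 to pas-7 and pbs-1 to pbs-7, and the 19 regulatory particle genes are rpt-1 to rpt-6 and 13 genes named rpn. All peaks came from ChIP-seq of 1 strain, OP553 (unc-119(tm4063) III; wgIs553), in which an integrated transgene makes CEH-79, a homeobox transcription factor, with GFP and FLAG at its C terminus. Whole young adults of mixed sex were collected 66 hours after synchronization as starved first-stage larvae, in 2 biological replicates, and the protein was recovered with an antibody to GFP. Every animal carried the transgene and the unc-119 allele, so the samples hold no group without tagged CEH-79. The labels do not state which sequences drive the transgene, and values from whole animals average over all tissues.

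The proteasome is the protease that destroys proteins marked with ubiquitin. Its core particle is a barrel in which outer rings of alpha subunits (pas genes) gate the entrance and inner rings of beta subunits (pbs genes) carry the proteolytic sites. The regulatory particle caps the barrel: a ring of ATPases (rpt genes) unfolds the substrate, and non-ATPase subunits (rpn genes) bind ubiquitin, remove it and hold the complex together. The subunits are needed in fixed proportion, and in worms the transcription factor SKN-1 raises many of these genes together when proteasome activity falls. Many worm transcripts are trans-spliced, so an annotated gene start can lie downstream of the place where transcription begins.

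For each gene the strongest peak was taken whose summit lay from 1000 bp upstream to 200 bp downstream of an annotated start, hereafter the promoter window. The lists searched were the 30000 candidate peaks of the pooled replicates, the authors' optimal list of 566 peaks, and the candidates of replicate 1 (30000) and replicate 2 (29624). Candidate lists include background regions, so a candidate is not by itself a binding site. Signal is the authors' own value for a peak. In the pooled list it ran between 23.2 and 409 with a median of 32.6, and the lowest optimal peak had 86.5. Read depth is unknown, and values of different lists share no scale. Intervals are exact binomial intervals at 95% over genes and cover counting error only. Genes are not replicates, so no test was made across them.

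Of the 33 proteasome genes, 18 (54.5%, interval 36.4 to 71.9%) had a pooled candidate in the promoter window, against 36.0% of all protein-coding genes. Only 2 of the 33, pas-5 and rpn-3, had an optimal peak (6.06%, interval 0.743 to 20.2%), against 1.48% of all protein-coding genes, which lies inside that interval. When each peak was given to the nearest protein-coding start alone, 11 of the 33 (33.3%) had a pooled candidate, against 30.4% of all protein-coding genes, close to that background. Both optimal summits lay beside another gene: that of rpn-3 between rpn-3 and hsp-110, and that of pas-5 inside a snoRNA gene. The remaining 16 pooled peaks ran in signal between 24.2 at rpn-6.1 and 77.8 at rpt-3.

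Sequences are shown for 4 peaks: the stronger optimal one (rpn-3), the strongest proteasome gene peak in a promoter window below the optimal list (rpt-3), the strongest core particle peak after pas-5 (pas-1) and an intergenic peak with the most search words (rpn-2). Each runs from 50 bases before the pooled summit to 50 after it, 5′ to 3′ on the strand of the named gene, read from the RefSeq assembly WBcel235, which has the coordinates of ce11. Capitals mark matches on either strand to any of 6 words of 6 bases, spelled out with their counts in promoters further on.
rpn-3 (chrIII:8447113-8447213, strand +): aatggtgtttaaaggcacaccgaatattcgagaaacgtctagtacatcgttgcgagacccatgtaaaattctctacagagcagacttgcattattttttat
rpt-3 (chrIII:6489864-6489964, strand +): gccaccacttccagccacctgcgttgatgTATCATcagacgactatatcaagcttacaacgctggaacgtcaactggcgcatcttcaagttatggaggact
pas-1 (chrV:14422396-14422496, strand -): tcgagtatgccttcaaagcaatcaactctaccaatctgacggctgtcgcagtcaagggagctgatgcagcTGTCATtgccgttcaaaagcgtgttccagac
rpn-2 (chrIII:6198811-6198911, strand +): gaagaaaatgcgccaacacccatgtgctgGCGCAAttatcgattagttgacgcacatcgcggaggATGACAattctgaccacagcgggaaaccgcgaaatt
The rpn-3 window held no searched word and had 37.6% GC. The rpt-3 window (49.5% GC) and the pas-1 window (50.5% GC) are coding sequence of those genes. The rpn-2 window (50.5% GC) held 2 of the searched words.

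The gene rpn-3 encodes a subunit of the lid, the part of the regulatory particle that removes ubiquitin chains. Its peak (chrIII:8446951-8447374 in ce11) was the strongest in the promoter window of any proteasome gene. It had a pooled signal of 133, rank 114 of 30000. In replicate 1 the signal was 51.7 (rank 614) and in replicate 2 it was 76.9 (rank 54). The summit was intergenic, 190 bp upstream of rpn-3 and 254 bp upstream of hsp-110, which is transcribed in the opposite direction and encodes a chaperone of the HSP110 family. The 2 genes are 443 bp apart, so the same peak stands for both promoters, and the data do not assign it to one of them. A short noncoding RNA gene of no stated class, C30C11.14, lay 68 bp from the summit. In both replicates the summit stayed in the gap between these genes, at 234 bp upstream of rpn-3 in replicate 1 and 186 bp upstream in replicate 2.

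The gene pas-5 encodes an alpha ring subunit. Its optimal peak had a pooled signal of 121 and rank 163, and spanned positions 10565148 to 10565571 of chromosome I. Replicate 1 gave a signal of 94.6 (rank 56) for the overlapping peak and replicate 2 a signal of 30.1 (rank 2389). The summit lay 990 bp upstream of pas-5, just inside the limit of the window, and inside the snoRNA gene F25H2.15 (10565266 to 10565443), 94 bp past its 5′ end. Among the 18 members' peaks this was the only 1 with a snoRNA, tRNA or snRNA gene within 500 bp (5.56%, against 3.15% over the strongest peaks of all genes with a candidate). Without peaks near such genes 0 core particle genes and 1 regulatory particle gene had an optimal peak, against 1.17% of all genes. Nearer to pas-5 the pooled list held weaker summits at 790 bp upstream (signal 47.8) and 486 bp upstream (signal 24.03), and in replicate 2 the strongest summit was at 438 bp upstream (signal 37.2, rank 1003).

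**Figure D1:**
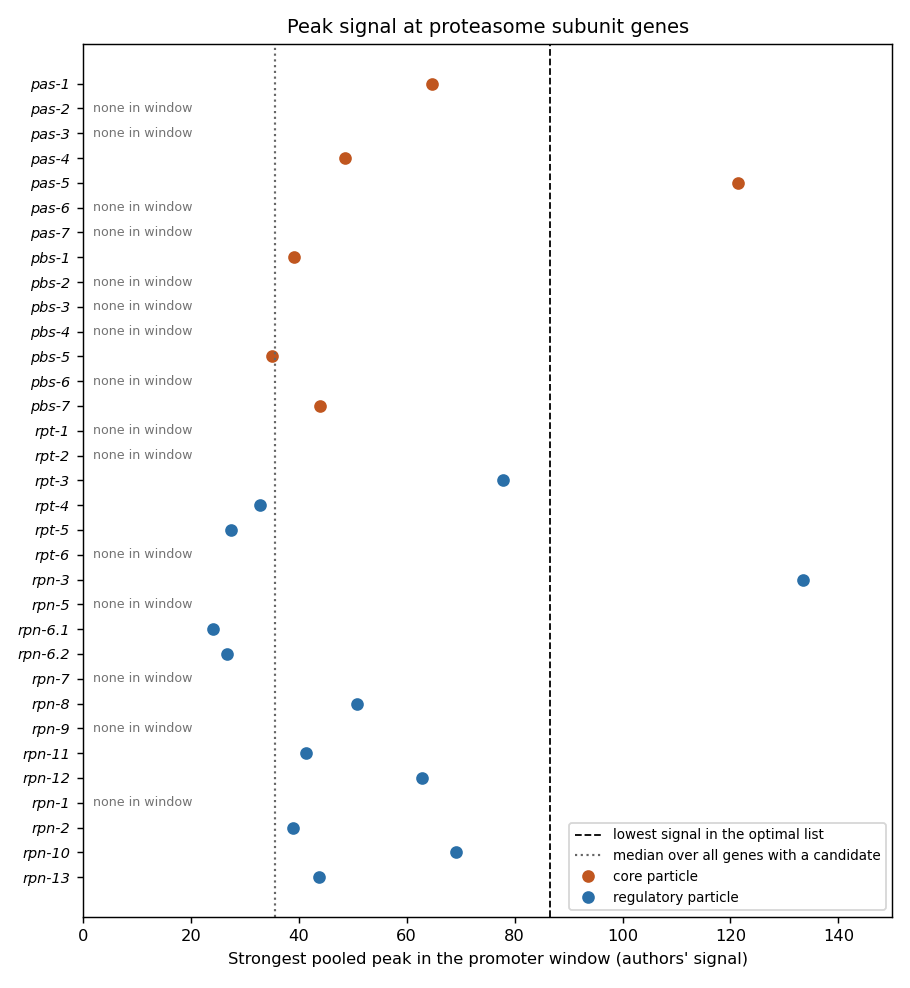
Signal of the strongest pooled peak in the promoter window (x axis, the authors' signal) for each of the 33 proteasome genes, core particle above regulatory particle; each point is 1 gene in the list pooled over both replicates. Only pas-5 (121) and rpn-3 (133) lie right of the dashed line at 86.5, the lowest signal in the optimal list; the dotted line is the median of 35.6 over all genes with a candidate.

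Core and regulatory particle genes were compared next. Of 14 core particle genes, 6 had a pooled candidate (42.9%, interval 17.7 to 71.1%), and of 19 regulatory particle genes 12 did (63.2%, interval 38.4 to 83.7%). Over all protein-coding genes the share was 36.0%. The difference of -20.3 percentage points, core minus regulatory, was not tested, and the intervals overlap. Each particle had 1 gene with an optimal peak (7.14% of the core and 5.26% of the regulatory particle, against 1.48% of all protein-coding genes). Among genes with a candidate, the median signal was 46.3 in the core particle (35.1 to 121, 6 genes) and 42.5 in the regulatory particle (24.2 to 133, 12 genes), against 35.6 over the 7186 genes of the annotation with a candidate. Above that median of all genes lay 5 of the 6 core particle genes and 8 of the 12 regulatory particle genes. The ranges of both particles overlap almost fully. The order of the medians turned with wider or narrower windows: with a window of 500 bp upstream to 100 bp downstream they were 29.9 in the core particle and 41.3 in the regulatory particle.

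In the alpha ring, 3 of 7 genes had a pooled candidate (42.9%, against 36.0% of all protein-coding genes). Besides pas-5 these were pas-1, with a signal of 64.8 (rank 1514) and a summit in its own coding exon 172 bp past the start, and pas-4, with 48.6 (rank 4321). The pas-4 summit lay 940 bp upstream in a coding exon of rpb-3, a gene for an RNA polymerase II subunit. At pas-1 replicate 1 gave a signal of 37.01 (rank 2286) and replicate 2 a signal of 34.2 (rank 1414). For pas-2 and pas-3 the 3 candidate lists held no summit in the window. At pas-2 one lay outside it, 278 bp past the start, in the pooled list (signal 31.3) and in replicate 1 (signal 17.8). For pas-6 and pas-7 replicate 2 alone held 1, with signals of 13.1 and 13.5, near that list's minimum of 12.7.

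In the beta ring, pbs-1, pbs-5 and pbs-7 had pooled candidates, with signals of 39.1, 35.1 and 43.9. They were 42.9% of the ring's genes, against 36.0% of all protein-coding genes. None was optimal. The gene pbs-5, which encodes the subunit with the chymotrypsin-like site, had its windowed summit 25 bp past the start. A stronger one followed at 225 bp past the start, just outside the window, with a signal of 83.4 and rank 632, close below the optimal list. At pbs-1 the pooled summit lay 285 bp upstream of its start and 235 bp upstream of K08D12.3 on the other strand. An optimal peak lay further out at 1524 bp upstream of pbs-1 (signal 140, rank 97), with a signal of 103.8 (rank 36) in replicate 1 and 38.4 (rank 892) in replicate 2. In the window pbs-2, pbs-4 and pbs-6 had a summit in replicate 1 alone (signals 15.2, 21.8 and 16.7), and pbs-3 in replicate 2 alone (14.7). Outside the window pbs-3 had a pooled summit 225 bp past the start (signal 35.4) and one in replicate 1 at 216 bp (27.7). At pbs-6 a pooled summit lay 455 bp past the start (signal 33.6) and one in replicate 1 at 434 bp (27.97). The nearest pooled peak to pbs-4, an optimal one, lay 1034 bp past its start (signal 94.6).

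Among the ATPases, rpt-3 had a signal of 77.8 (rank 798), rpt-4 32.8 (rank 14815) and rpt-5 27.5 (rank 22191). The rpt-3 peak lay 121 bp past the start, in its coding sequence. It had signal 30.5 (rank 4728) in replicate 1 and 48.8 (rank 343) in replicate 2. Among the proteasome genes' peaks inside the promoter window it is the closest below the optimal list, at 77.8 against the lowest optimal signal of 86.5. The rpt-4 summit lay in a coding exon of rpoa-49, an RNA polymerase I subunit gene whose body overlaps the rpt-4 start. That of rpt-5 lay 969 bp upstream in a coding exon of rad-8, and neither replicate list held a summit in the rpt-5 window. For rpt-2 replicate 2 alone held a summit (16.1), and for rpt-1 and rpt-6 none of the 3 candidate lists held one in the window. At rpt-1 a pooled summit lay just outside it, 264 bp past the start (signal 47.9, rank 4541). The replicates had theirs at 263 bp (replicate 1, signal 26.7) and 250 bp (replicate 2, signal 20.4) past the start.

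In the lid, 6 of 9 genes had a pooled candidate (66.7%, against 36.0% of all protein-coding genes). After rpn-3 came rpn-12 with 62.9 (rank 1665), rpn-8 with 50.7 (rank 3723) and rpn-11, the deubiquitinase, with 41.3 (rank 7528) and a summit 35 bp upstream of the start. The rpn-11 peak was matched in replicate 1 (signal 43.8, rank 1208) and not in replicate 2. At rpn-8 the summit lay 925 bp upstream in a coding exon of mrps-6, whose start was nearer. The rpn-12 summit lay 733 bp upstream, in a coding exon of the divergent gene rad-23, which encodes a shuttle that carries ubiquitinated proteins to the proteasome. An optimal peak lay 1950 bp upstream of rpn-12 (signal 114.9, rank 196), outside the window. It had rank 429 in replicate 1 (signal 57.1) and rank 242 in replicate 2 (signal 52.97). The paralogs rpn-6.1 and rpn-6.2 had 24.2 and 26.8, the lowest signals of the set, near the pooled minimum of 23.2. For rpn-5 (signal 26.9) and rpn-9 (signal 15.6) replicate 2 alone held a summit in the window, and for rpn-7 no list held one there. Outside the window rpn-9 had pooled summits 220 bp (signal 25.9) and 419 bp (signal 33.9) past the start.

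Of the 4 non-ATPase genes of the base, rpn-10 and rpn-13, both for ubiquitin receptors, had signals of 69.2 (rank 1195) and 43.7 (rank 6250). The scaffold gene rpn-2 had 38.9 (rank 9117), and for rpn-1 the 3 candidate lists held no summit in the promoter window. The replicates were far apart at rpn-10, where the overlapping peak had rank 553 (signal 52.9) in replicate 1 and rank 17093 (signal 16.7) in replicate 2.

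**Figure D2:**
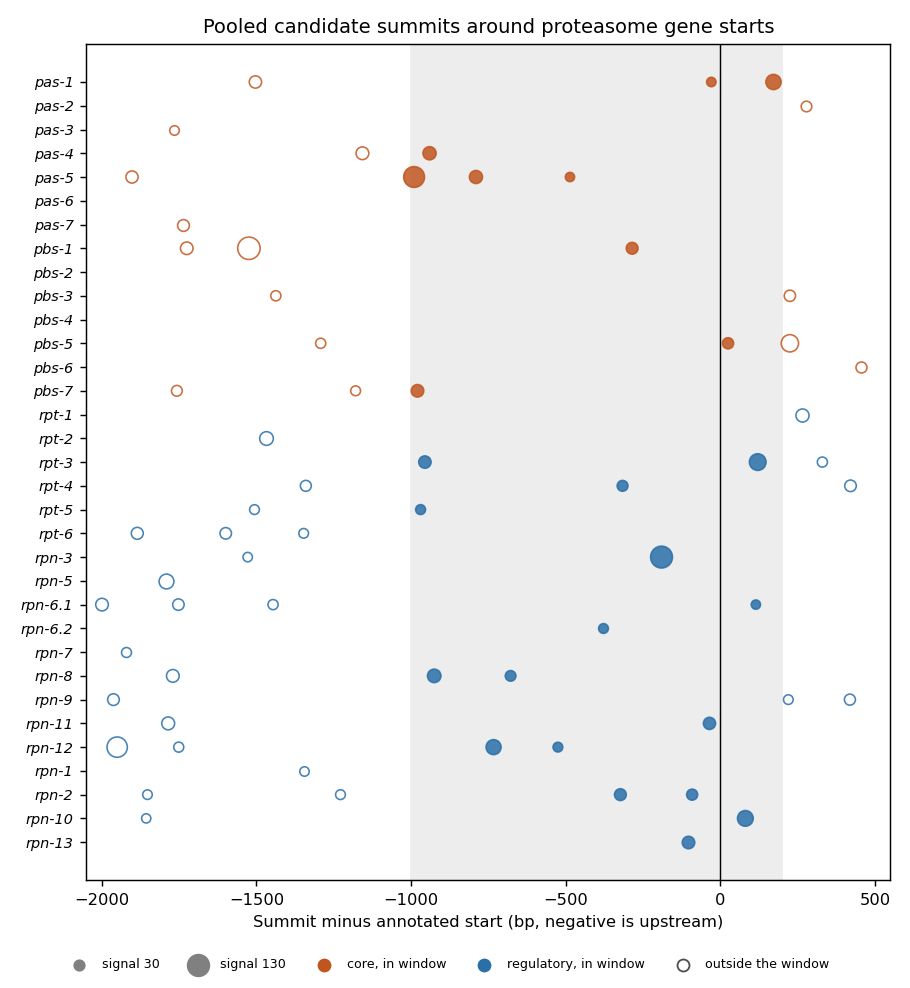
Summits of pooled candidates from 2000 bp upstream to 500 bp downstream of each proteasome gene's start (x axis, bp), with the promoter window shaded; filled circles lie in the window, open ones outside, and area is proportional to the authors' signal. The pas-5 peak lies 990 bp upstream, at the edge of the window, while the rpn-3 peak lies 190 bp upstream; open circles of large area stand at pbs-1, pbs-5 and rpn-12.

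The position of the 18 peaks was set beside the neighbours of each proteasome gene. The nearest protein-coding start was that of the member itself in 11 of 18, which were 3 of 6 in the core particle and 8 of 12 in the regulatory particle. No share over the peaks of all genes was at hand for this count. With each peak given to the nearest start alone, 33.3% of members had a candidate, against 30.4% of all genes. The summit lay in a coding exon in 10 (55.6%, against 26.2% over all genes with a candidate). In 7 of these the exon belonged to a neighbour, a count with no share over all genes at hand. Intergenic summits numbered 6 (33.3%, against 45.0%). More than 900 bp upstream lay 5 of the 18 summits (27.8%, against 6.83%), 3 in the core particle and 2 in the regulatory particle. Within 250 bp of the start lay 8 (44.4%, against 47.8%). The promoter window of another protein-coding gene also held the summit in 7 (38.9%, against 21.9%). These differences from all genes were not tested. Of all 33 members, 8 had a gene on the same strand less than 500 bp upstream, a count with no share over all genes at hand. Among these 8 the gap was 106 bp at pas-1, 110 bp at pbs-5, 118 bp at rpn-10 and 224 bp at rpn-11. Whether transcription begins at such starts was not tested. The median GC content from 50 bp before to 50 bp after the summit was 43.1% in the core particle and 43.6% in the regulatory particle, against 41.6% over all genes with a candidate.

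How far the replicates repeated one another at these genes was examined with the 566 strongest candidates of each, as many as the optimal list holds. In replicate 1 pas-5 and rpn-10 had such a peak (2 of 33, 6.06%, against 1.48% of all genes), and in replicate 2 rpn-3 and rpt-3 had one (2 of 33, against 1.33%). No member had one in both replicates, so the exact interval reaches up to 10.6%, against 0.741% of all genes. Each optimal peak thus ranked among the strongest in 1 replicate: pas-5 in replicate 1 and rpn-3 in replicate 2.

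At lower ranks, 18 of 33 members had any candidate in the window in replicate 1 (against 36.4% of all genes) and 19 in replicate 2 (against 36.3%). Both replicates held one for 11 of 33 (33.3%), against 21.7% of all genes. This was 2 of 14 core particle genes (14.3%, interval 1.78 to 42.8%) and 9 of 19 regulatory particle genes (47.4%, interval 24.4 to 71.1%). The intervals overlap and the difference was not tested. Of the 18 pooled peaks, 13 overlapped a candidate in both replicates by at least 1 bp (72.2%), against 51.6% of the 6461 strongest peaks of all genes. These were 5 of 6 peaks of the core particle and 8 of 12 of the regulatory particle, so on this measure the core particle had the higher share. Some overlapping core particle peaks had summits outside the window: 242 bp past the start at pbs-5 in replicate 1 and 1136 bp upstream at pas-4 in replicate 2. At pbs-7 they lay 1072 bp upstream in replicate 1 and 1039 bp upstream in replicate 2. Those of the 8 regulatory particle peaks matched in both replicates lay inside the window. At rpt-5, matched in replicate 1 alone, the overlapping peak had its summit outside it, 1296 bp upstream. Overlap therefore does not show that the same summit was found again. Over those 13 peaks the replicate signals had a Spearman correlation of 0.308, against 0.390 over all such peaks matched in both. The correlation is a description across peaks that share both libraries and 1 control alignment. Counting every list, 27 members had a summit in the window in the pooled or a replicate list (81.8%, against 52.7% of all protein-coding genes). Of these, 9 had one in a replicate list alone, and 6 members had none.

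**Figure D3:**
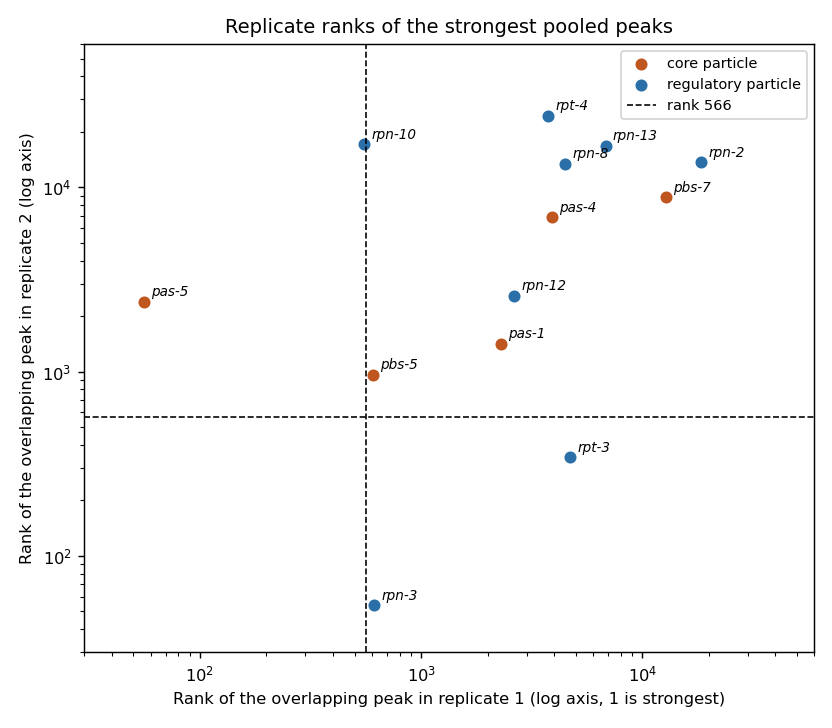
Ranks of the replicate peaks that overlap the strongest pooled peak of 13 proteasome genes, replicate 1 on the x axis and replicate 2 on the y axis (log axes, rank 1 is strongest); each point is 1 gene and the dashed lines mark rank 566. No gene lies within rank 566 on both axes, and rpn-3 reaches rank 54 in replicate 2 and pas-5 rank 56 in replicate 1. An overlapping peak can have its summit outside the promoter window.

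Words were counted in the promoters of all 33 members, from 250 bases before each gene's 5′ end to 50 after it. Both strands were read and no word contains another. The word TGTCAT, a part of the SKN-1 consensus, was in 12 promoters (36.4%), 5 of the core particle and 7 of the regulatory particle, against 16.3% of all 19985 promoters of that length. The variant TATCAT of that consensus was in 4 promoters (12.1%, against 19.3%), all of the regulatory particle. The homeodomain core TAATTA was in 8 promoters (24.2%, against 15.5%), 5 of the core particle and 3 of the regulatory particle. In 1 promoter the word GTTGCC was present (3.03%, against 7.28% of all promoters). In 6 promoters the repeat GAGAGA was present (18.2%, against 21.8% of all promoters). In 4 promoters the word TTGCGC was present (12.1%, against 7.11% of all promoters).

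At the 18 summits, in windows of 50 bp to each side, the homeodomain core was in 0 windows, against 3.39% of the strongest summits of all genes. The first SKN-1 word was at the summits of pas-1 and rpn-2 (2 of 18, 11.1%, against 5.05%) and its variant at that of rpt-3 (5.56%, against 4.88%). The word TTGCGC was at the summits of rpn-11 and rpn-2 (11.1%, against 4.23%). At rpn-12 the summit window held GTTGCC (5.56%, against 3.30%). At pbs-5 the summit window held the repeat (5.56%, against 9.53%). A match is a string of letters in a window and not a site.

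Genes linked to the proteasome were listed next. Of 30 genes outside the pas, pbs, rpn and rpt families, 18 had a pooled candidate (60.0%, interval 40.6 to 77.3%) and 2 an optimal peak (6.67%, interval 0.818 to 22.1%). For this and the next lists, the shares over all protein-coding genes were 36.0% with a pooled candidate and 1.48% with an optimal peak. Most of the 30 genes act in the ubiquitin pathway, but their list also holds the transcription factor gene skn-1 and dss-1, the counterpart of a small lid subunit of yeast (SEM1). The symbol rule left dss-1 out of the members, and it had a candidate with a signal of 32.4. The genes with an optimal peak were cdc-48.1, for the ATPase that extracts ubiquitinated proteins (signal 149, summit 171 bp upstream), and eel-1, for a HECT ubiquitin ligase (signal 102, 391 bp upstream). The ubiquitin gene ubq-2 (53.9) and the gene of the ubiquitin activating enzyme, uba-1 (79.9), had candidates below the optimal list, as did skn-1 (52.6). A further list held 17 genes of the COP9 signalosome and of initiation factor eIF3, taken by symbol. Only some of the subunits they encode resemble those of the lid. Of these 17 genes, 9 had a candidate (52.9%) and 0 an optimal peak (interval up to 19.5%). Ribosomal protein genes had candidates in 55 of 78 (70.5%, interval 59.1 to 80.3%) and an optimal peak in 8 (10.3%, interval 4.53 to 19.2%). A peak among the strongest of both replicates was at 7 of them (8.97%), against 0 of 33 proteasome genes and 0.741% of all protein-coding genes. Chaperonin genes had candidates in 5 of 8 and an optimal peak at cct-8 (signal 134). The intervals of the proteasome and of these lists overlap.

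**Figure D4:**
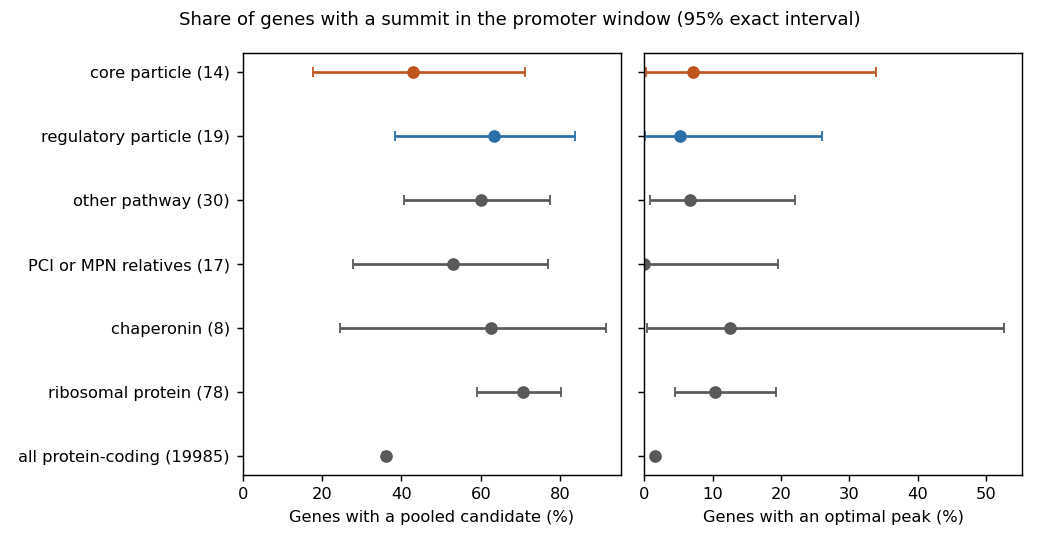
Share of genes (x axes, %) with a pooled candidate (left) and with an optimal peak (right) in the promoter window, for each gene list with its number of genes; points are shares and bars are 95% exact binomial intervals over genes, and "other pathway" is the list of 30 linked genes. The label "PCI or MPN relatives" stands for all COP9 signalosome and eIF3 genes taken by symbol, of which only some encode relatives of lid subunits. Core particle genes had 42.9% and 7.14%, regulatory particle genes 63.2% and 5.26%, and all protein-coding genes 36.0% and 1.48%.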

How the data were processed

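Per the labels, CEH-79 with a GFP-FLAG tag was precipitated from sonicated chromatin in 1 group of 2 biological replicates. Per the notes deposited with the files, the authors called candidate peaks on each replicate and on both pooled against 1 control alignment, and thresholded the optimal list on irreproducible discovery rate. Which aligner and caller were used is not given in the sources used here. Both the deposited signal and the deposited -log10 q of a peak are the authors' values and served to describe and rank peaks within a list. No read counts were at hand, so depth is unknown. The ce10 lists were not used here.

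Summits were assigned to annotated protein-coding transcript starts of Ensembl release 115 (WBcel235, ce11 coordinates) from 1000 bp upstream to 200 bp downstream, and sequence was read from the RefSeq assembly. The optimal peaks all occur in the pooled list. The members and gene lists were chosen with earlier results of these data known. Of 31 listed pathway symbols 30 matched. Named with values were members with an optimal peak, the highest and lowest of each subcomplex and those with no candidate, and other members were named after their values were seen. Alternatives changed the window, the starts, the assignment, the threshold and the replicate. Window assignment was tested on simulated data. Python 3.11.15, numpy 2.4.6, pandas 2.3.3, scipy 1.17.1, pyfaidx 0.9.0.4 and matplotlib 3.10.9 were used.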

Additional observations from a re-analysis of the deposited data

How the results depend on the processing

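Of 48 alternative values, 32 stayed within 1.5 times the count or equal to the median given above. With a window of 2000 bp upstream to 500 bp downstream, 11 core and 19 regulatory particle genes had a pooled candidate (against 53.6% of all genes), 2 core and 2 regulatory particle genes had an optimal peak (against 2.29%), and the median signals were 43.9 in the core and 44.3 in the regulatory particle. With a window of 500 bp upstream to 100 bp downstream, 7 regulatory particle genes had a candidate (against 22.9% of all genes), 0 core particle genes an optimal peak (against 0.946%), and the median signals were 29.9 in the core and 41.3 in the regulatory particle. With the nearest protein-coding start only, 3 core and 8 regulatory particle genes had a candidate (11 of 33, 33.3%, against 30.4% of all genes), and the core median was 64.8. Leaving out peaks near short noncoding genes (tRNA, snoRNA, snRNA), 0 core and 1 regulatory particle genes had an optimal peak (against 1.17%) and the core median was 43.9. The strongest 566 candidates of a single replicate were also used in place of the optimal list. Then 0 to 1 core and 1 to 2 regulatory particle genes had a peak (against 1.33 to 1.48% of all genes). With a single replicate's candidate list 7 core and 11 to 12 regulatory particle genes had a candidate (against 36.3 to 36.4%). The causes of these changes were not tested beyond what each setting leaves out. No paired analysis was possible because the series held 1 group. Depth is unknown, so a gene without a candidate is not shown to lack binding.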

Other observations

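Candidates were also counted by chromosome. On chromosome III, 6 of 8 members had a pooled candidate (42.6% of all protein-coding genes there), and on chromosome I 7 of 10 (39.6% of all genes there). On chromosome V it was 1 of 5 (31.2%), on chromosome IV 1 of 3 (34.3%) and on chromosome II 3 of 7 (35.8%). No member lies on the X chromosome. These counts were made after the values were seen and were not tested.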
